A study of Rattus norvegicus with 16 samples.

Results

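Sox9, Sox5 and Sox6 are the SOX transcription factors known for driving cartilage formation, and their levels were followed in cells of the rat intervertebral disc (IVD). These 3 genes were taken by name from the 14930 genes listed in any of the files, and each was listed in all 4 groups of the study. Male Sprague-Dawley rats aged 8 weeks at surgery had L4-5 and L5-6 discs punctured with a 27G needle (lumbar disc puncture, LDP), while L2-3 and L3-4 discs of the same operated animals were left uninjured (CON). Discs were taken 2 weeks after puncture from rats 1 to 4 and 8 weeks after puncture from rats 5 to 8. The 2 discs of a kind from 1 rat were pooled into 1 library of droplet single-cell RNA-seq, giving 16 libraries, 4 in each group of treatment and time. CON is therefore an uninjured level of an operated spine and not an unoperated animal.

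All SOX proteins bind DNA through a high-mobility-group box that recognises a short AT-rich word and bends the helix. Sox9 carries a strong activation domain and is required for chondrocyte commitment, and loss of a single copy in people causes campomelic dysplasia. Sox5 and Sox6, of the SoxD group, lack an activation domain, dimerise through coiled coils and bind beside Sox9 at enhancers of Col2a1, Acan and other cartilage matrix genes, where they raise its effect. In the disc the nucleus pulposus (NP) is the gelatinous core, the inner annulus fibrosus (IAF) is a fibrocartilage and the outer annulus fibrosus (OAF) is closer to ligament, so the 3 tissues differ in how much cartilage matrix their cells make.

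Of the 3 genes, Sox6 had a promoter sequence in the RefSeq table used (GRCr8), and it is shown because the words that SOX proteins bind can be read in it. It covers the 250 bases before the start of the gene on the minus strand, chr1:179665372-179665621, with a GC content of 42.8%. The words ACAATG and ACAAAG were searched on both strands, and each match is in capitals.
Sox6 promoter: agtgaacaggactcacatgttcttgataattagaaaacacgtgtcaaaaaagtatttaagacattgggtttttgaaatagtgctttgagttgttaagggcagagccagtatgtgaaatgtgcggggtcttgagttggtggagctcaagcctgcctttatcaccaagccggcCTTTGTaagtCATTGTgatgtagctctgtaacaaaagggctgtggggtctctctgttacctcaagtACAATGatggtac
The 3 matches start 79, 69 and 13 bases before the gene's start. At least 1 of the words stood in 25.3% of all 33469 promoters of this length (8465), and in 1 of the 10 cartilage matrix promoters in the table, that of Hapln1, which encodes the link protein of aggrecan. A match describes the letters of the window and no binding was measured here.

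The libraries held 2221 to 15918 cells, 149272 in all, of which 127077 belonged to the IVD class by the authors' annotation (1313 to 14252 per library). Median depth of IVD cells was 4226 to 9889 unique molecular identifiers (UMIs, counts of single transcripts), and the share of ribosomal transcripts in them was higher in every CON library of 8 weeks (13.2% to 14.5%) than of 2 weeks (10.3% to 13.0%). Pairs of libraries shared a median of 19 cell barcodes, and the highest number was 75, between the LDP libraries of rats 2 and 3. Levels below are mean CPM per cell (a gene's counts scaled to one common total of UMIs) and are compared within a gene only. The defining IVD markers were present in IVD cells, with Acan, which encodes the proteoglycan aggrecan, at a mean of 1936 CPM in the lowest group and 3501 CPM in the highest. Sox9 itself was among the genes the authors used to name the IVD class, so the difference between classes is given as a description.

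Sox9 was high in IVD cells and low in the endothelial, myeloid and lymphoid classes. At 2 weeks its level had a median over 8 libraries of 657 CPM in NP cells (lowest 488, highest 1064), 570 CPM in IAF cells (414 to 886) and 205 CPM in OAF cells (156 to 246). Myeloid cells stood at 55.7 CPM (7.32 to 108), endothelial cells at 28.7 CPM (15.2 to 54.9) and lymphoid cells, with enough cells in 4 libraries, at 28.8 CPM (15.5 to 43.4). NP and IAF cells overlapped in range, whereas every OAF library lay below every NP and IAF library and above every endothelial one. Over all weeks the endothelial, lymphoid and myeloid classes held 4.56%, 4.48% and 6.48% of the IVD level of Sox9 in the same library (medians). Those shares lay close to those of Col2a1, the type II collagen gene that none of these cells is known to make, at 7.41%, 4.49% and 7.45%, with exceptions among single libraries. Myeloid cells of the LDP library of rat 2 held 20.2% of the IVD level of Sox9 and 8.82% of that of Col2a1, and those of the CON library of rat 2 held 7.46% and 2.38%.

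Sox5 and Sox6 were each also higher at 2 weeks in the disc tissues than in the endothelial, myeloid and lymphoid classes. Sox5 had a median of 50.7 CPM in NP cells (39.1 to 71.4), 43.6 CPM in IAF cells (31.4 to 60.6) and 27.1 CPM in OAF cells (20.5 to 32.8). It was 4.21 CPM in endothelial, 8.01 CPM in lymphoid and 1.62 CPM in myeloid cells. Sox6 had a median of 37.1 CPM in NP cells (19.8 to 48.3), 37.6 CPM in IAF cells (17.3 to 45.5) and 23.8 CPM in OAF cells (11.6 to 36.8). The other 3 classes had 1.03 to 1.76 CPM of Sox6. For Sox5 the OAF range overlapped the IAF range at its edge, and for Sox6 all 3 tissue ranges overlapped.

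**Figure D1:**
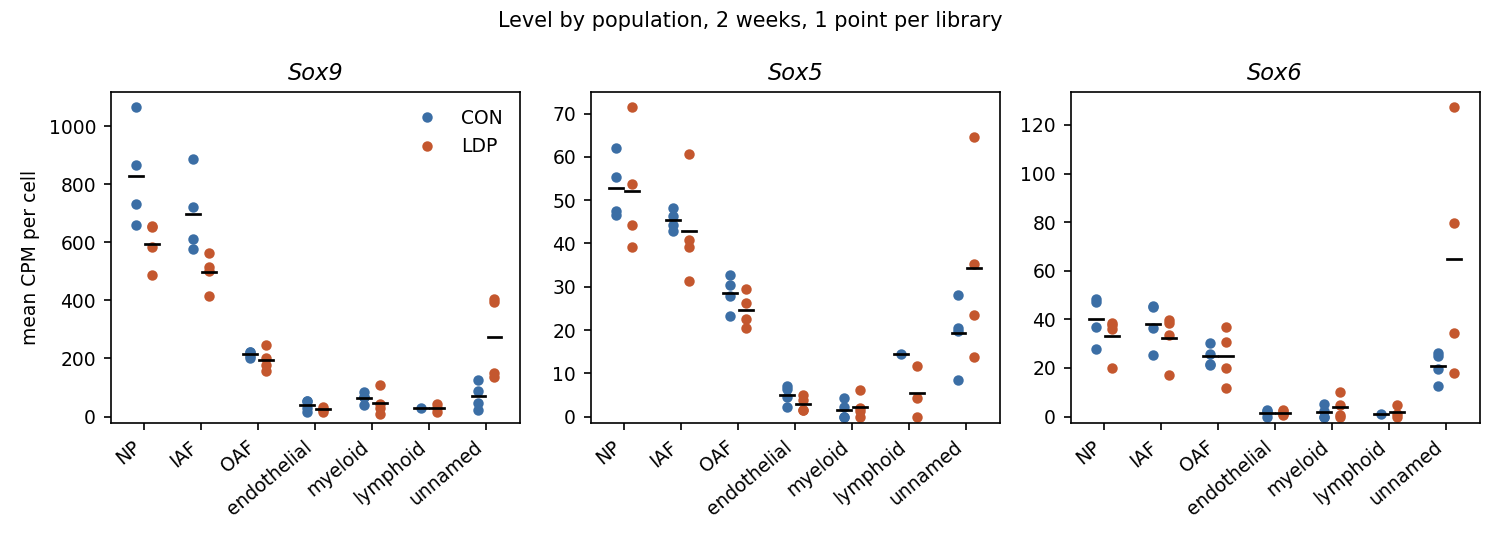
Mean level per cell (CPM) of Sox9, Sox5 and Sox6 by cell population at 2 weeks, with 1 point per library (CON blue, LDP orange) and a bar at the mean. Sox9 was 488 to 1064 CPM in NP cells and 156 to 246 CPM in OAF cells, and each gene was lowest in endothelial, myeloid and lymphoid cells.

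Within a library the step from outer annulus to nucleus was steepest for Sox9. The NP level of Sox9 was 3.39-fold the OAF level at the median (2.37-fold to 5.25-fold, higher in 8 of 8 libraries). The same ratio was 1.95-fold for Sox5 (1.45-fold to 2.72-fold, 8 of 8) and 1.63-fold for Sox6 (0.980-fold to 2.21-fold, 7 of 8). NP and IAF cells were much closer, at 1.19-fold for Sox9 (1.14-fold to 1.27-fold, 8 of 8), 1.21-fold for Sox5 (8 of 8) and 1.05-fold for Sox6 (6 of 8). Matching by deposited cluster number would exchange the NP and IAF names in LDP and invert the NP to IAF ratios of the LDP libraries. The clusters were drawn by the authors on the same cells, so these ratios describe the clusters and carry no test.

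Depth was taken out by expressing detection as the share of cells that would hold a UMI of the gene if every cell were thinned to 1000 UMIs. On that scale a median of 44.8% of NP cells, 39.7% of IAF cells and 17.2% of OAF cells had Sox9. Over all weeks the median was 2.73% in endothelial, 2.49% in lymphoid and 2.41% in myeloid cells against 42.2% in IVD cells (29.5% to 56.2%), whose median depths before thinning were 1685 to 5274, 1319 to 5296, 2479 to 8265 and 4226 to 9889 UMIs. Sox5 was found in 4.14% of IVD cells (3.15% to 5.77%) and 0.356% of endothelial cells, and Sox6 in 2.38% of IVD cells (1.03% to 4.37%) and 0.124% of endothelial cells. At this depth most IVD cells thus held no UMI of Sox5 or Sox6, which is a limit of detection and not a count of cells lacking them.

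The first comparison was of injured with uninjured discs. At 2 weeks Sox9 in IVD cells was 593, 919, 728 and 589 CPM in the CON libraries of rats 1 to 4, and 532, 532, 542 and 407 CPM in their LDP libraries. All 4 LDP libraries lay below all 4 CON libraries, as for 4.2% of the 8355 genes tested, and each rat's LDP library was below its CON library, as for 13.6% of them. The group means were 707 ± 155 CPM (SD, n = 4) in CON and 503 ± 64.3 CPM (SD, n = 4) in LDP. The log2 difference was −0.48 (SE 0.15, 95% interval −0.82 to −0.13), 28.1% lower in LDP, with an unadjusted p of 0.0115 and an adjusted p of 0.314 by limma over all genes tested. Sox9 was thus not called, and few genes were: 0.144% of genes passed an adjusted p under 0.05 in either direction and 0.0239% were called lower. Summed endothelial and Schwann cell markers moved in the same cells without overlap. The 6 endothelial markers summed to 34.0 to 192 CPM in CON and 13.9 to 28.6 CPM in LDP. The 5 Schwann cell markers summed to 12.4 to 16.3 and 21.5 to 100.1 CPM, with no marker at 0 in all libraries. Mural, myeloid, lymphoid and erythroid sums overlapped. None of 4 endothelial and 3 Schwann cell markers tested was called (lowest limma adjusted p 0.114 and 0.0895), and 1 of the endothelial ones was higher in LDP. In IVD cells free of any UMI of an endothelial, myeloid or lymphoid marker the Sox9 difference was −0.49 (limma adjusted p 0.300). That filter took out 21.7% to 43.1% of IVD cells in CON and 31.0% to 42.4% in LDP libraries. The part of the endothelial and Schwann cell transcripts in the Sox9 difference was not tested.

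Sox5 at 2 weeks was 44.0, 45.00, 51.1 and 48.7 CPM in CON and 41.4, 42.7, 61.8 and 33.0 CPM in LDP. Sox6 was 34.4, 27.3, 44.3 and 44.7 CPM in CON and 35.2, 36.1, 37.4 and 17.5 CPM in LDP. For both SoxD genes the groups overlapped, and the LDP library of rat 4 was the lowest. The log2 differences were −0.11 for Sox5 (95% interval −0.46 to 0.24, limma adjusted p 0.756) and −0.28 for Sox6 (−0.88 to 0.32, limma adjusted p 0.657). Without rat 4 they were 0.04 and 0.06, so that the sign of both rested on that rat, whereas Sox9 stood at −0.46 without it. The LDP library of rat 4 had the highest ribosomal share (16.3%) and median IVD depth (7924 UMIs) of its group, and their part in its Sox levels was not tested.

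**Figure D2:**
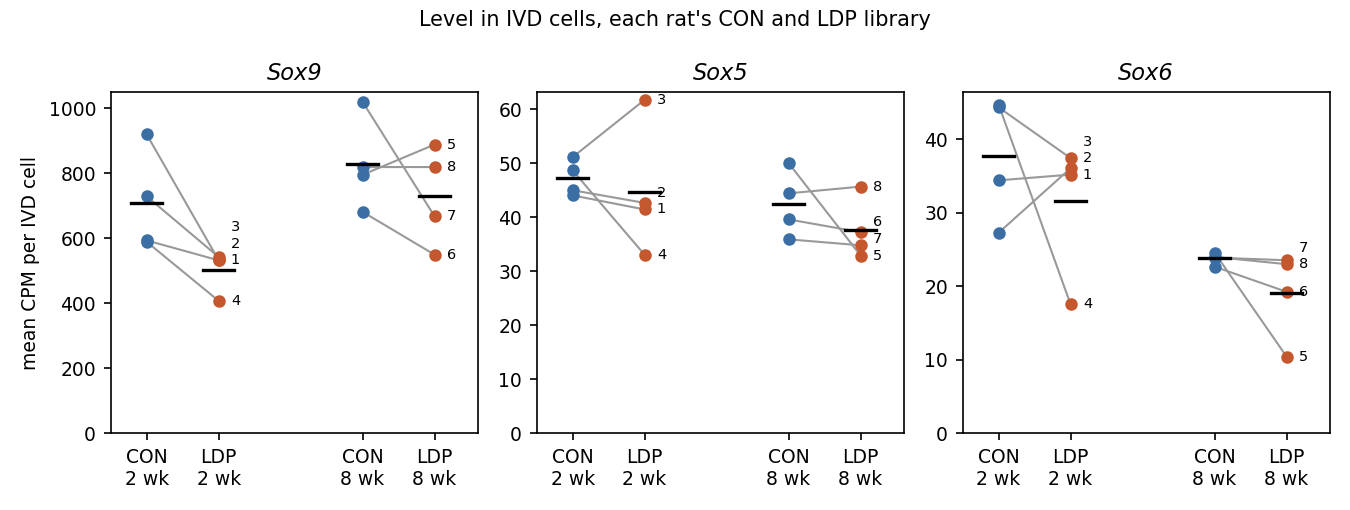
Mean level per IVD cell (CPM) of Sox9, Sox5 and Sox6 in each library of the 4 groups, with lines joining the pair of libraries from 1 rat, rat numbers at the right and black bars at group means. At 2 weeks the Sox9 level was 589 to 919 CPM in CON and 407 to 542 CPM in LDP, and at 8 weeks the groups overlapped.

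At 8 weeks Sox9 was 795, 681, 1019 and 818 CPM in the CON libraries of rats 5 to 8 and 888, 549, 667 and 818 CPM in their LDP libraries. Rat 5 was higher after puncture, rats 6 and 7 were lower and rat 8 was level. Sox5 was 50.03, 39.6, 35.9 and 44.4 CPM in CON and 32.9, 37.2, 34.8 and 45.7 CPM in LDP. Sox6 was 24.6, 22.7, 23.9 and 23.98 CPM in CON and 10.4, 19.2, 23.5 and 23.0 CPM in LDP. Sox6 was lower in LDP in 4 of 4 rats, a pattern that 25.8% of genes had, and rat 5 made most of the gap. The log2 differences were −0.19 for Sox9 (95% interval −0.53 to 0.15), −0.17 for Sox5 (−0.52 to 0.18) and −0.37 for Sox6 (−0.96 to 0.23), with limma adjusted p of 0.482, 0.535 and 0.439 where 0.383% of genes were called and 0.192% called lower. Without rat 5 the Sox6 difference was −0.10 and the Sox5 difference −0.03, and without rat 7 the Sox9 difference was −0.05.

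The change from 2 to 8 weeks in the effect of puncture was tested itself. It was 0.29 for Sox9 (95% interval −0.20 to 0.77), −0.06 for Sox5 (−0.55 to 0.43) and −0.09 for Sox6 (−0.93 to 0.76) on the log2 scale. No gene passed an adjusted p under 0.05 in this test by limma (0% of 8355, with 17 higher and 83 lower at an unadjusted p under 0.05), while DESeq2 called 6 and edgeR 0. The interval for Sox6 was the widest of the 3 and spans a change in either direction.

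The same comparison was then made within each tissue at 2 weeks. In NP cells Sox9 was 730, 1064, 866 and 658 CPM in CON and 583, 651, 655 and 488 CPM in LDP. In IAF cells it was 610, 886, 721 and 578 CPM in CON and 502, 562, 515 and 414 CPM in LDP. In both tissues all LDP libraries lay below all CON libraries, as for 2.58% of genes in NP and 7.1% in IAF cells. The LDP names were matched through cell numbers printed by the study. Matched by deposited number instead, the LDP values of NP and IAF change places, and the IAF groups overlap. In OAF cells Sox9 was 207, 203, 222 and 224 CPM in CON and 246, 179, 201 and 156 CPM in LDP, and the groups overlapped. The log2 differences were −0.47 in NP (95% interval −0.79 to −0.15, limma adjusted p 0.413), −0.48 in IAF (−0.86 to −0.10, 0.338) and −0.15 in OAF (−0.56 to 0.26, 0.802), and whether tissues differed was not tested. In the IAF cluster 6 endothelial markers summed to 24.8 to 321 CPM in CON (median 138) and 13.3 to 30.5 CPM in LDP (median 22.9), and 4 mural markers to 23.4 to 223 CPM (median 86.4) and 15.8 to 38.5 CPM (median 21.1), and their part in the IAF difference of Sox9 was not tested.

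None of Sox9, Sox5 and Sox6 was called within a tissue. By limma 0% of 7791 genes were called in NP (408 higher and 336 lower at an unadjusted p under 0.05), 0% of 7730 in IAF (211 and 783) and 1.25% of 8802 in OAF, where 0.0795% were called lower. Sox5 differed by −0.05, −0.12 and −0.21 on the log2 scale in NP, IAF and OAF cells, with limma adjusted p of 0.920, 0.766 and 0.702. Sox6 differed by −0.28, −0.27 and −0.10 with limma adjusted p of 0.716, 0.662 and 0.925, and without rat 4 the 3 values were 0.02, 0.09 and 0.30. The authors clustered CON and LDP cells apart, so a name may cover different cells in the 2 groups.

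The OAF cluster of LDP discs held transcripts of other cell types. Schwann cell markers summed to 3.36 to 6.52 CPM in CON OAF libraries and 119 to 680 CPM in LDP ones, and mural cell markers to 10.2 to 35.4 CPM and 482 to 779 CPM. All 4 Schwann markers tested and all 4 mural markers tested were called higher by limma at an adjusted p under 0.05. Sox2, a SOX factor of glial and stem cells, rose by 4.73 in the same cells (SE 0.27, limma adjusted p 0.00017). The part of these cells in the OAF levels of Sox9, Sox5 and Sox6 was not tested.

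Detection at equal depth was compared over all 8 rats together. Sox9 was found at 1000 UMIs in 40.2%, 51.8%, 47.8% and 40.7% of IVD cells in CON and 37.4%, 37.4%, 37.8% and 29.5% in LDP for rats 1 to 4. For rats 5 to 8 it was found in 47.5%, 41.6%, 56.2% and 50.02% in CON and 52.1%, 36.3%, 42.8% and 49.2% in LDP. The share was lower in LDP in 7 of 8 rats, rat 5 being the other, and 23.1% of genes were lower in at least 7. The mean difference was −6.67 percentage points (SD 6.69, n = 8), with a two-sided exact sign-flip p of 0.0391, for which 0.00781 is the smallest possible, and 0.131 when adjusted over all 8355 genes. Of those genes 21.9% were lower at an unadjusted p under 0.05 and 0% passed after adjustment (32.1% at an unadjusted p under 0.05 in either direction), so a lower share in LDP at this depth was common among genes.

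With all UMIs counted the Sox9 share was 85.1% ± 5.16 in CON and 84.9% ± 5.82 in LDP (SD, n = 8 each), a mean difference of −0.212 points (exact sign-flip p 0.961). By time, the difference at 1000 UMIs was −9.61 points at 2 weeks (lower in 4 of 4 rats, exact p 0.12, the smallest that 4 rats allow) and −3.74 points at 8 weeks (3 of 4, exact p 0.375). The SoxD genes differed by fewer points. Sox5 was found in 4.29% ± 0.479 of cells in CON and 3.93% ± 0.860 in LDP (SD, n = 8 each), with a difference of −0.364 points (lower in 6 of 8 rats, exact p 0.266). Sox6 was 3.00% ± 0.893 and 2.46% ± 0.951 (−0.543 points, 6 of 8, exact p 0.195). Adjusted over all genes these were 0.433 and 0.354. Leaving out rat 3 gave an unadjusted exact p of 0.0313 for Sox5, and leaving out any other rat gave 0.266 to 0.531. For Sox6 it was 0.0469 without rat 2 and 0.172 to 0.391 without any other rat. The exact p of Sox9 was 0.0781 without rat 2, 3, 4, 6 or 7.

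Of 15 cartilage matrix genes 13 were tested between LDP and CON, and 0 were called at either time, where 0.144% and 0.383% of all genes were called (10 above 0 and a median of 0.22 at 2 weeks, 5 above 0 and a median of −0.20 at 8 weeks, against medians over all genes of −0.08 and −0.14). Col9a2, of type IX collagen, was 364 to 397 CPM in CON and 441 to 604 CPM in LDP IVD cells at 2 weeks, without overlap, as for 3.05% of genes, and its log2 difference was 0.45 (SE 0.13, limma adjusted p 0.290). None of 4 tested Sox9 partner genes and 9 tested chondrocyte transcription factors was called. The partner list had medians of −0.25 and −0.32 at 2 and 8 weeks, with 3 of 4 genes below 0 at each time (lowest −0.36 and −0.44), and Wwp2, a ubiquitin ligase gene that Sox9 induces, was the other, at 0.15 and 0.13. Of 12 other SOX genes only Sox8, a SoxE gene related to Sox9, passed the filter on low values in IVD cells, and it differed by −0.09 and −0.49 (limma adjusted p 0.772 and 0.132). Among the 9 tested chondrocyte transcription factors, Foxc1, a forkhead factor of the developing skeleton, had the largest negative value at both times, −0.38 and −0.49.

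The second comparison was of time in uninjured discs, and there Sox6 fell. Every CON library of 8 weeks (22.7 to 24.6 CPM) lay below every CON library of 2 weeks (27.3 to 44.7 CPM), as was so for 15.1% of genes. The group means were 37.7 ± 8.43 CPM (SD, n = 4) at 2 weeks and 23.8 ± 0.804 CPM (SD, n = 4) at 8 weeks. The log2 difference was −0.62 (SE 0.15, 95% interval −0.95 to −0.28), 34.7% lower, with a limma adjusted p of 0.0168. Many genes changed in this comparison: 22.9% of 8022 genes were called and 13.8% were called lower, so a call here is common. Without rat 3, whose CON library was among the highest, the difference was −0.53 with a limma adjusted p of 0.0560. The call was also lost over all cells of the library (−0.53, limma adjusted p 0.0716) and with means of log2 values (−0.38, limma adjusted p 0.109).

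Sox9 and Sox5 were not called with time in CON discs. Sox9 went from 707 ± 155 to 828 ± 141 CPM (log2 difference 0.24, 95% interval −0.13 to 0.61, limma adjusted p 0.323). Sox5 went from 47.2 ± 3.29 to 42.5 ± 6.12 CPM (−0.16, −0.42 to 0.10, limma adjusted p 0.351). For both the groups overlapped, whereas 11.1% of genes were higher in every CON library of 8 weeks than in every one of 2 weeks. Time here lies between different rats and preparations, which cannot be told apart, and the ribosomal share given above moved with it. Endothelial markers in IVD cells moved too, from 34.0 to 192 CPM summed over 6 genes at 2 weeks to 15.8 to 22.3 CPM at 8 weeks; in IVD cells free of any UMI of another class's markers the Sox6 difference was −0.61 (limma adjusted p 0.0171).

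The cartilage matrix list was tested in the same fit. Of 13 genes tested 7 fell and 0 rose, where 13.8% of all genes were called lower, with a median of −0.71 where the median of all genes was −0.01. Col2a1 fell from 10427 ± 4422 to 2398 ± 684 CPM (log2 difference −2.04, limma adjusted p 0.00301), and Acan from 3132 ± 214 to 1936 ± 183 CPM (−0.70, limma adjusted p 0.00193). Col11a1, of the type XI collagen that nucleates the type II fibril, fell by 1.21 on the log2 scale, Cnmd, which encodes the antiangiogenic chondromodulin, by 1.16, and Col11a2 by 0.86. Comp, a pentameric matrix linker, fell by 0.75 and Col9a2 by 0.71, while Mia, a small secreted cartilage protein gene, had the highest value of the list, 0.39 (limma adjusted p 0.366).

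Genes outside the cartilage matrix list were counted beside the 13.8% of all genes called lower and the 22.9% called in either direction. Of 10 fibrous matrix genes 8 fell, Col1a1 by 2.26 on the log2 scale (limma adjusted p 0.00079). Of 8 chondrocyte transcription factors tested 2 fell, Erg by 0.89 and Zbtb20 by 0.57, and of 4 Sox9 partners 1 fell, the Mediator subunit gene Med12 by 0.40 (limma adjusted p 0.0336). Of 9 housekeeping genes 2 rose and 1 fell, and of 5 hypertrophy genes tested only Spp1, which encodes osteopontin, was called, at 0.70 higher (limma adjusted p 0.0101). Sox8 differed by −0.43 (limma adjusted p 0.126).

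**Figure D3:**
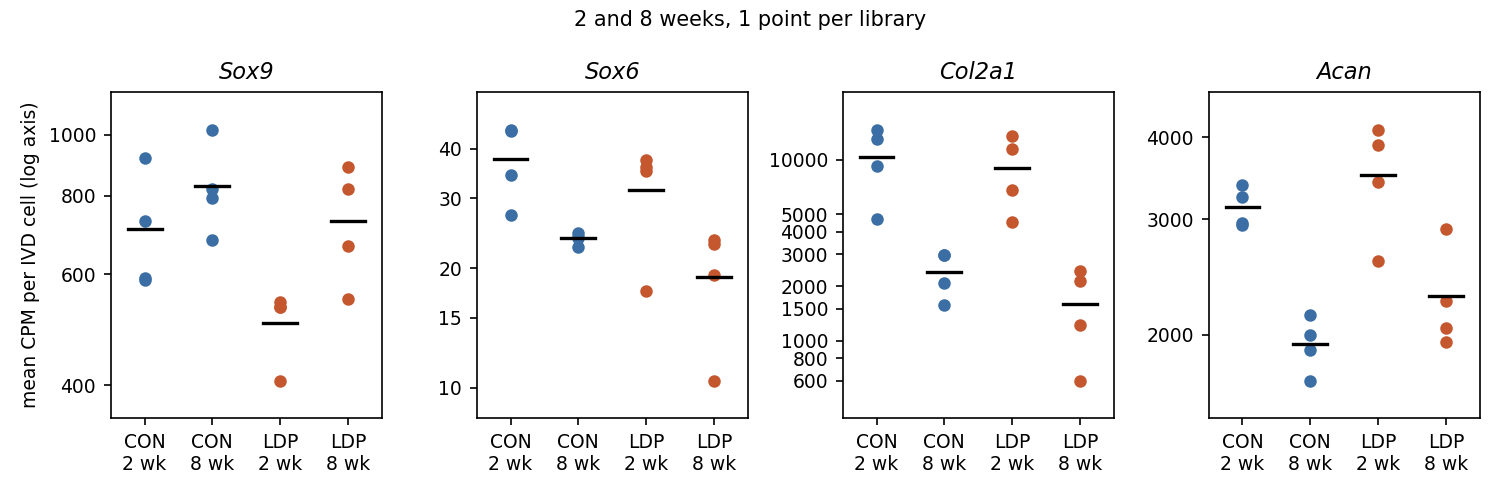
Mean level per IVD cell (CPM, log axis) of Sox9, Sox6, Col2a1 and Acan in each library by group, with bars at group means. CON libraries of 8 weeks held 22.7 to 24.6 CPM of Sox6 against 27.3 to 44.7 CPM at 2 weeks, and in CON every library of 8 weeks lay below every one of 2 weeks for Col2a1 and Acan while Sox9 overlapped. In LDP Col2a1 was likewise lower, Acan overlapped and Sox9 was higher in every library of 8 weeks (549 to 888 CPM) than of 2 weeks (407 to 542 CPM).

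Injured discs were compared between times as well, a comparison added after the data were seen. Sox6 was 17.5 to 37.4 CPM at 2 weeks and 10.4 to 23.5 CPM at 8 weeks in LDP libraries, and these overlapped. Its log2 difference was −0.70 (95% interval −1.39 to −0.02, limma adjusted p 0.210) where 4.13% of 7792 genes were called and 2.98% called lower. Sox9 was 407 to 542 CPM at 2 weeks and 549 to 888 CPM at 8 weeks, without overlap, as for 7.43% of genes. Its log2 difference was 0.52 (0.11 to 0.94, limma adjusted p 0.137). Sox5 differed by −0.22 (limma adjusted p 0.557), and Sox8 fell by 0.82 (limma adjusted p 0.0337).

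Set against Acan, Sox9 stood higher at 8 weeks in both arms. The log2 ratio of Sox9 to Acan was −2.17 ± 0.335 at 2 weeks and −1.24 ± 0.184 at 8 weeks in CON, and −2.79 ± 0.129 and −1.66 ± 0.441 in LDP (SD, n = 4 each). Neither arm overlapped between times. The same held for 71.4% of all genes in CON and 25.2% in LDP when set against Acan, and for 90.8% and 93.7% when set against Col2a1. These ratios were chosen after the values were seen and carry no test.

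Whether the 3 genes were found in the same cells was measured at equal depth. Co-detection was the share of IVD cells holding both genes at 1000 UMIs divided by the product of their shares, computed within each library. In CON rat 3, for example, 2.52% of IVD cells had both Sox9 and Sox5 where the product was 2.34%. The ratio for Sox9 with Sox5 had a median of 1.09 over 16 libraries (0.995 to 1.15, above 1 in 15). It was 1.04 for Sox9 with Sox6 (0.988 to 1.09, above 1 in 12), with a median of 0.998 in the CON libraries of 8 weeks (0.988 to 1.03), and 1.14 for Sox5 with Sox6 (0.686 to 1.32, above 1 in 15). In other terms, 46.3% of cells with a Sox5 UMI and 42.0% of cells without one had Sox9 (medians over libraries).

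Housekeeping genes gave the background of the measure. The same ratio with housekeeping genes had medians of 1.01 for Sox9, 1.00 for Sox5 and 1.00 for Sox6, and each library's value for Sox9 with Sox5, Sox9 with Sox6 and Sox5 with Sox6 exceeded it in 15, 13 and 14 of 16 libraries. Sox5 and Sox6 rarely met at this depth, with both in a median of 0.129% of cells against a product of 0.107%.

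Co-detection was also computed within each tissue, with ranges that overlapped and no test of a difference between tissues. Sox9 with Sox5 lay above 1 in 8 of 8 libraries of each tissue. In NP cells the ratios were 1.04, 1.00 and 1.07 for Sox9 with Sox5, Sox9 with Sox6 and Sox5 with Sox6 (medians over 8 libraries). In IAF cells they were 1.06, 1.04 and 1.23. In OAF cells Sox9 with Sox5 was 1.47, 1.24, 1.33 and 1.05 in CON and 1.15, 1.48, 1.29 and 1.55 in LDP, with a median of 1.31. CON and LDP overlapped. Sox9 with Sox6 in OAF cells had a median of 1.20 (0.979 to 1.78, above 1 in 7 of 8) and Sox5 with Sox6 of 1.10 (0.720 to 1.80), from 454 to 2335 OAF cells per library.

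**Figure D4:**
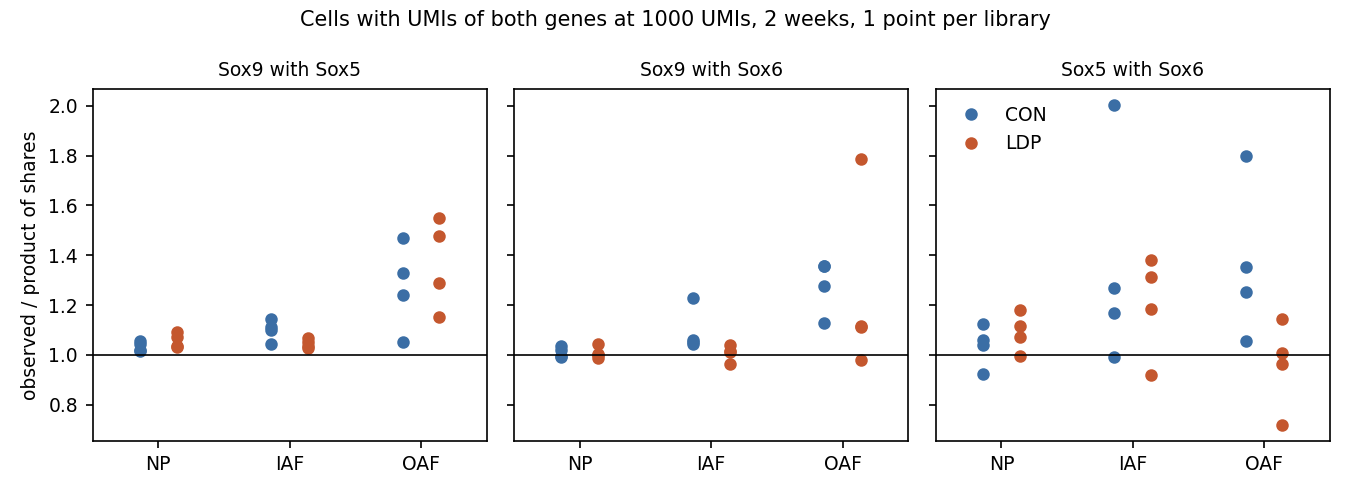
Observed share of cells with both genes at 1000 UMIs over the product of their shares, for each pair of Sox genes in NP, IAF and OAF cells at 2 weeks, with 1 point per library. For Sox9 with Sox5 all 8 libraries lay above 1 in each tissue, at 1.02 to 1.09 in NP, 1.03 to 1.15 in IAF and 1.05 to 1.55 in OAF cells.

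The cells were then split by whether they held a Sox9 UMI at 1000 UMIs, and the matrix genes were compared between the 2 sets in each library. Within OAF cells the cells with Sox9 held more of the cartilage matrix. Col2a1 in OAF cells with and without Sox9 was 5236 and 2631 CPM in CON rat 1, 2307 and 858 CPM in CON rat 2, 5046 and 2039 CPM in CON rat 3, and 4623 and 2727 CPM in CON rat 4. In LDP it was 6882 and 3489 CPM in rat 1, 3125 and 1448 CPM in rat 2, 5518 and 2491 CPM in rat 3, and 2089 and 648 CPM in rat 4. In every library the cells with Sox9 were higher. The median log2 ratio was 1.13 for Col2a1, 1.21 for Col9a1, of the type IX collagen on the fibril surface, 0.70 for Acan and 0.35 for Comp, the smallest.

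Over the whole cartilage list the OAF log2 ratio was 0.91, 0.88, 0.66 and 0.45 in CON and 0.58, 0.59, 0.82 and 0.88 in LDP. CON and LDP overlapped, and the median was 0.74 (above 0 in 8 of 8). All 13 genes with enough signal were higher with Sox9 in every library that gave a value. In the same cells the fibrous list had a median of −0.01, at −0.15 to −0.06 in CON and 0.04 to 0.28 in LDP. The housekeeping list had a median of −0.06, at −0.07 to 0.06 in CON and −0.17 to −0.06 in LDP. The LDP OAF cells are those with the Schwann and mural markers given above, whose part in the ratios was not tested.

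The same ratios were computed in NP and IAF cells. The cartilage list had a median log2 ratio of −0.03 in NP (above 0 in 2 of 8 libraries) and −0.01 in IAF (3 of 8). The fibrous list was −0.29 in NP (above 0 in 0 of 8) and −0.13 in IAF (1 of 8), with housekeeping at 0.02 and 0.01. Over all IVD cells, which pool the 3 tissues, the cartilage list had a median of 0.07 (above 0 in 12 of 16 libraries), and its genes went both ways. Acan was at 0.16 and Hapln1, the link protein gene, at 0.21 (each above 0 in 16 of 16), whereas Col2a1 was above 0 in 8, Col11a1 in 5 (median −0.04) and Comp in 3 (−0.06). Cells with Sox9 held less of the fibrous list, at a median of −0.86 (above 0 in 0 of 16), and its genes differed widely. Tnmd, the tendon gene tenomodulin, was at −1.81, the small proteoglycan gene Lum at −1.58 and Col1a1 at −1.20. Dcn, Col5a2 and Col5a1 differed least, at −0.07, −0.07 and −0.13. Of the pooled tissues OAF cells had the least Sox9, as given above.

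**Figure D5:**
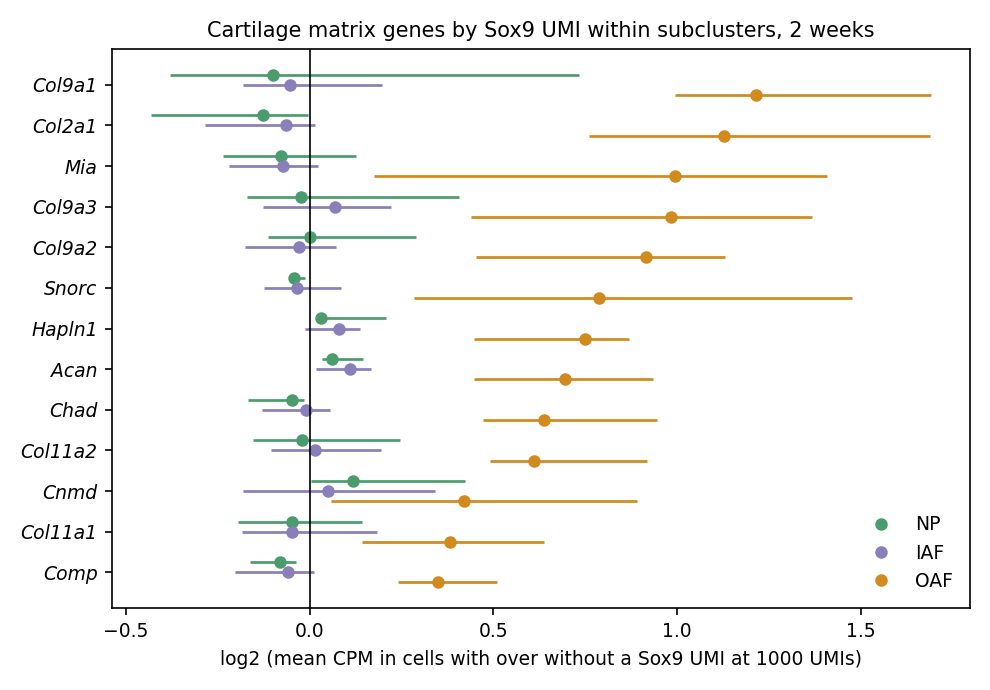
Log2 ratio of 13 cartilage matrix genes between cells with and without a Sox9 UMI at 1000 UMIs in NP, IAF and OAF cells at 2 weeks, with dots at the median over libraries and lines from the lowest to the highest. Every gene lay above 0 in OAF cells (Col2a1 1.13, Acan 0.70), whereas the list medians in NP and IAF cells were −0.03 and −0.01.

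The cells were split by a UMI of Sox5 or Sox6 in the same way. With a Sox5 UMI the cartilage list had a log2 ratio of 0.11 in IVD cells (above 0 in 12 of 16), 0.10 in NP (8 of 8), 0.08 in IAF (8 of 8) and 0.25 in OAF (−0.69 to 1.46, 5 of 8). With a Sox6 UMI it was 0.05 in IVD cells (13 of 16), 0.06 in NP (8 of 8), 0.03 in IAF (7 of 8) and 0.36 in OAF (−0.15 to 0.78, 7 of 8). Sox6 gave a fibrous list as high in NP, at 0.06 (8 of 8), and in IAF, at 0.05 (6 of 8). That list was −0.05 in IVD cells (5 of 16) and 0.05 in OAF (5 of 8). For Sox5 the fibrous list was −0.46 in IVD cells (0 of 16) and −0.15 in NP (0 of 8). In IAF and OAF it was −0.11 (2 of 8) and −0.05 (3 of 8). Housekeeping medians were −0.04 to −0.01 for both genes. Cells of 1 library share its depth and its free RNA, so these ratios describe libraries and carry no p.

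Across the 2-week populations of each library (41 points), among 9364 genes of enough level, the 5 genes closest to each Sox gene were ranked by Pearson r of log2 level. For Sox9 these were RGD1305645 (0.980), Thbs2, a thrombospondin (0.978), the chemokine gene Cxcl14 (0.975), Clec3a, a cartilage lectin (0.972), and Fn1, fibronectin (0.972). For Sox6 they were Smoc1 (0.970), Plekhh2 (0.964), Prelp, a small leucine-rich proteoglycan (0.961), Enpp1, which makes pyrophosphate (0.961), and the potassium channel gene Kcnma1 (0.958). For Sox5 they were Tmem97 (0.941), Sec13 (0.940), Chpt1 (0.928), Kcnq5 (0.925) and Twsg1 (0.922), all lower than for the other members. Among themselves the trio reached 0.934 for Sox9 with Sox6, 0.892 for Sox5 with Sox6 and 0.873 for Sox9 with Sox5, which put Sox6 at place 51 in the order for Sox9. The points share libraries and the contrast of disc with other cells, so r is given as a description.

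In cells the authors left unnamed, Sox6 exceeded its IVD level in 5 of 16 libraries, Sox5 in 1 (of 23 unnamed cells) and Sox9 in 0. The Sox6 level in them reached 127 CPM in the LDP library of rat 4 (60 of 223 cells with a UMI) and 79.6 CPM in that of rat 3 (43 of 304), and 58.5 CPM in the CON library of rat 5 (87 of 801). The red cell genes Hbb and Alas2, of beta globin and of the first step of heme synthesis, were more frequent in these cells. In CON rat 5 Alas2 was found in 83.9% of unnamed cells with a Sox6 UMI (95% exact Clopper-Pearson interval 74.5% to 90.9%) and 15.8% of those without (13.2% to 18.7%). In LDP rat 3 the shares were 60.5% (44.4% to 75.0%) and 11.9% (8.21% to 16.4%), and in LDP rat 4 they were 55.0% (41.6% to 67.9%) and 20.2% (14.4% to 27.2%). Cells were counted here with all their UMIs and not at equal depth, and the part of depth was not tested. Each interval counts cells of 1 library and gives no spread between rats. Sox6 is known also as a regulator of globin genes in maturing red cells. In unnamed cells of the 2-week CON libraries Alas2 was rare with or without Sox6. In CON rat 1 it was found in 6 of 730 unnamed cells, among them 2 of the 23 with Sox6 (8.70%). In CON rats 2 to 4 it was found in 0 unnamed cells.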

How the data were processed

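Single cells of 16 libraries from 8 rats were measured by droplet RNA-seq. The authors processed reads in Partek (build rn6, per the labels), kept cells with 500 to 3000 genes, 500 to 30000 UMIs and under 10% mitochondrial counts, and clustered each of the 4 groups apart. Treatment of doublets and free RNA is not given in the sources used here. The deposited values are log2(CPM + 1) per cell, with a deposited total of expected counts per cell. Of values above 0, 99.4% returned whole counts within 0.02. Cell classes and, at 2 weeks, NP, IAF and OAF subclusters came from the deposited annotation. LDP subcluster numbers were matched to names through cell numbers printed by the study.

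Mean CPM per library and population was tested as log2(mean + 1) with limma 3.58.1 (R 4.3.3), for genes of at least 5 CPM in 4 libraries. Benjamini-Hochberg adjustment was over all genes tested, with a threshold of 0.05. Rat was a block in the fits of LDP against CON and of the change of that effect between times. The fits of 8 against 2 weeks within CON or LDP, which lie between rats, had no block. Populations of under 20 cells were left out. Fold changes are on the log2(value + 1) scale, which understates low genes. Shares at 1000 UMIs were expected hypergeometric shares in cells of at least 1000 UMIs (883 IVD cells were left out), tested by exact sign flips (256 for 8 rats). A planned adjustment over the 3 genes was replaced by one over all genes. Python 3.11.15 with numpy 2.4.6, pandas 2.3.3 and scipy 1.17.1 was used, and edgeR 4.0.16 and DESeq2 1.42.0 on summed recovered counts served as alternatives. The limma and edgeR fits of LDP against CON at 2 weeks in IVD cells were tested on simulated data. So were the equal-depth share and the sign-flip test, while the other fits were not. Intervals cover counting or between-library error only.

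CON and LDP libraries were paired by animal. The correlations of their deviations were −0.194, 0.218, 0.210, −0.194, 0.165, 0.512, 0.0726 and 0.403 for rats 1 to 8. Other alternatives were a pseudocount of 5 CPM, no filter, means of log2 values, all cells, IVD cells without other classes' markers, other depths and each rat left out.

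The members and gene lists were chosen with earlier results of these data known. Genes named were the members, genes with the highest and lowest values of a list, genes of a list that passed the test, and the 5 closest in pattern. Wwp2, Hapln1, Acan, Col9a2, Col5a1, Col5a2, Sox2, Sox8, Alas2 and Hbb were named after their values were seen.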

Additional observations from a re-analysis of the deposited data

Results flagged for a closer look

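The LDP library of rat 4 stood apart from the other 3 LDP libraries of 2 weeks in 6 measures, by a gap to its nearest neighbour above Dixon's critical value for 4 samples. Sox6 in its IVD cells was 17.5 CPM (others 35.2 to 37.4) and was found in 1.71% of cells at 1000 UMIs (others 3.43% to 3.65%). In its NP cells Sox6 was 19.8 CPM (others 36.1 to 38.7) and was found in 1.94% of cells (others 3.51% to 3.76%). Sox9 in its IVD cells was 407 CPM (others 532 to 542) and was found in 29.5% of cells (others 37.4% to 37.8%). In all 75 groups of 4 were examined and 3.75 would be marked by chance, and the 6 measures share cells and are not independent. The library also had the highest median IVD depth (7924 UMIs) and ribosomal share (16.3%) of its group and 11.7% lymphoid cells; their part was not tested.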

How the results depend on the processing

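For the results on the trio, 259 alternative values kept direction and side of the threshold, 13 changed sign, 10 dropped below the threshold, 2 passed it and 10 moved. The threshold of 0.05 was set on the adjusted p for levels and on the unadjusted exact sign-flip p for shares. The Sox9 share was under it in that sense only (0.0391), since its p adjusted over all genes was 0.131. The fall of Sox6 with time in CON discs was −0.53 (limma adjusted p 0.0716) over all cells and −0.38 (0.109) with means of log2 values, and −0.76 to −0.53 with each rat left out, so that 0 members were called in these (0 to 1 with a rat left out). With means of log2 values Sox5 differed by 0.025 at 2 weeks and 0.016 at 8 weeks between LDP and CON. The change of the Sox6 effect between times was 0.0215 by DESeq2, 0.0213 by edgeR and 0.048 with means of log2 values. With a rat left out, Sox5 spanned −0.24 to 0.035 and Sox6 −0.50 to 0.061 at 2 weeks, the change between times −0.21 to 0.079 for Sox5 and −0.43 to 0.18 for Sox6, NP Sox5 −0.13 to 0.10, NP Sox6 −0.53 to 0.023, IAF Sox6 −0.56 to 0.089 and OAF Sox6 −0.40 to 0.30. With subclusters matched by deposited number, an alternative added after the data were seen, IAF Sox5 differed by 0.16. By that matching the LDP values of NP and IAF cells change places, and the Sox9 groups of IAF cells then overlap. The Sox9 share differed by −0.212 points with all UMIs (exact p 0.961) and −7.07 over all cells (exact p 0.0703), and by −8.28 to −5.58 with a rat left out, with an exact p of 0.0781 without rat 2, 3, 4, 6 or 7. The Sox5 share differed by 0.706 points with all UMIs and −0.542 to −0.191 with a rat left out, and the Sox6 share by −0.727 to −0.241. By tissue, co-detection was 1.04 (NP) and 1.31 (OAF) for Sox9 with Sox5 and 1.00 and 1.20 for Sox9 with Sox6, and the OAF matrix ratios were 0.74, 0.25 and 0.36 for Sox9, Sox5 and Sox6. The causes were not tested.

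Without the replicate block, the Sox9 share had a permutation p of 0.0408 and no call on the trio changed, while calls over all genes went from 12 to 2 at 2 weeks, 32 to 39 at 8 weeks, 0 to 1 for the change between times and 0 to 9 in IAF cells. Calls over all genes also moved at 2 weeks to 233 (DESeq2), 19 (edgeR), 2 (pseudocount of 5), 1 (means of log2 values), 0 (all cells) and 0 to 2 (a rat left out), and at 8 weeks to 499 (DESeq2), 123 (without other classes' markers), 1 (means of log2 values, and all cells) and 1 to 3 (a rat left out). For the change between times they were 6 (DESeq2), 4 (without other classes' markers) and 0 to 7 (a rat left out), for time in CON 267 (means of log2 values) and 872 to 2007 (a rat left out), for IAF 13 by deposited number, and with a rat left out 0 to 5 in NP, 0 to 7 in IAF and 24 to 47 in OAF.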
